A study of Mus musculus with 11 samples.

Results

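Mediator and RNA polymerase II subunits were taken as all genes of the array annotation whose symbol is Med followed by a number, with or without a final l, or Polr2 followed by a letter from a to m. The annotation held 43 such genes, 30 of Mediator and 13 of RNA polymerase II (Pol II), among the 18194 genes with a probe set of their own. Of the 43, 41 had a probe set annotated to that gene alone. Polr2k and Polr2l were represented only by probe sets shared with other genes and were not measured here. All 41 measured genes passed the filter on dim probe sets, which kept a gene if its value exceeded the 40th percentile of an array in 3 or more of the 11 arrays.

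The series addressed which transcripts of mouse skin respond to ABBV-075 (also known as mivebresib), which blocks the bromodomains of the BET protein family. Whole skin was profiled on Affymetrix arrays, 1 array per sample, after vehicle (3 arrays, replicates 1, 3 and 4), 6 h after 1 mg/kg ABBV-075 (4 arrays, replicates 1, 2, 3 and 5) or 24 h after the same dose (4 arrays, replicates 1 to 4). The labels give neither strain, sex, age or route nor the time at which vehicle skin was collected, and only 1 dose was used. That the samples of a group came from separate mice is not stated, so p-values measure the spread between these samples.

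Mediator is a large complex that carries signals from enhancer-bound transcription factors to Pol II at promoters. Its head and middle modules contact the polymerase, its tail binds activators, the Med14 subunit runs through the complex as a scaffold, and a kinase module attaches reversibly. Pol II itself consists of the catalytic pair Polr2a and Polr2b, further subunits of its own, and several that it shares with Pol I and Pol III.

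Promoters are shown for 3 members whose 6 h and vehicle values did not overlap: the Mediator scaffold, the catalytic Pol II subunit, and a small Pol II subunit with lower values at 6 h. They come from RefSeq (build GRCm38.p6), run from 250 bases before the transcription start to 50 after it, and are written 5′ to 3′ on the gene's strand. The Polr2a and Polr2i windows are set on the 5′ end of the annotated gene. The Med14 window is set on a start inside its gene, whose 5′ end is at chrX:12762594. Capitals mark matches, on either strand, to 3 motifs. The first was GGGCGG, the core of the site bound by Sp family factors. The second was CCGGAAG, which ETS family factors recognise. The third was TATAAA, which is the element bound by the TBP subunit of TFIID. No matches overlapped in these 3 promoters.
Med14, chrX:12761924-12762223, minus strand: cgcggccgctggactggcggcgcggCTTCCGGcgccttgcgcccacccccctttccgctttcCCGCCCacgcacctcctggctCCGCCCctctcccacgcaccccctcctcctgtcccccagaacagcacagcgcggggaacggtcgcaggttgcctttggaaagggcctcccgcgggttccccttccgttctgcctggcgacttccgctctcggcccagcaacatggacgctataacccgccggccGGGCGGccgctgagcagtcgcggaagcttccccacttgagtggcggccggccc
Polr2a, chr11:69758584-69758883, minus strand: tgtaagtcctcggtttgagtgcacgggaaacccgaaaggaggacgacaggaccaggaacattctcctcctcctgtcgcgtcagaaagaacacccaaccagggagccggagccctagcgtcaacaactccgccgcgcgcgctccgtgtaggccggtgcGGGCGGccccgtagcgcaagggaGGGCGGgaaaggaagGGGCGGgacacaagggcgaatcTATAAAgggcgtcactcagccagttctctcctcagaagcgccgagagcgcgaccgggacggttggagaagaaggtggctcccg
Polr2i, chr7:30231824-30232123, plus strand: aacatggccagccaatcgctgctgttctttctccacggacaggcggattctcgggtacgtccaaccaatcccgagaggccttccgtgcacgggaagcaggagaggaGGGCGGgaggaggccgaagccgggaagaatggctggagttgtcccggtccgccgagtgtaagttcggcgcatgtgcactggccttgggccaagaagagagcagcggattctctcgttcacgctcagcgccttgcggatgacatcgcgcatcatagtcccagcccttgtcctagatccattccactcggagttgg

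The Med14 promoter held 3 GGGCGG matches and 1 CCGGAAG match, the Polr2a promoter 3 GGGCGG matches and 1 TATAAA match, and the Polr2i promoter 1 GGGCGG match. The table held 42 promoters of 36 of the 43 members. GGGCGG was in 64.3% of these 42, against 58.6% of the 14014 promoters of genes that passed the array's filter and 35.7% of all 32851 promoters in the table. CCGGAAG was in 28.6% of the members' promoters, 15.4% of those of filtered genes and 8.86% of all. TATAAA was in 11.9%, 8.46% and 13.6% respectively. The median number of CG dinucleotides per promoter was 20 for the members and 19 for filtered genes. These are counts of letters in the window and describe no binding.

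Values are log2(intensity + 16) after quantile normalization between arrays, so a value of 4.00 is the floor. Before normalization the arrays differed in brightness, with trimmed means from 82.8 to 244. The 5′ to 3′ signal ratio of beta-actin, which falls with shortened RNA, was under 0.3 on 3 arrays: 0.0725 on 6 h replicate 5, 0.198 on 24 h replicate 2 and 0.284 on 6 h replicate 3. The same ratio for Gapdh was low only on 6 h replicate 5 (0.104). On 24 h replicate 2 (0.804) and 6 h replicate 3 (0.711) it lay within the vehicle range of 0.698 to 0.911. Keratinocyte and fibroblast markers were present on every array: the mean over 8 suprabasal keratinocyte markers lay between 11.16 and 11.87, and that over 8 fibroblast markers between 10.56 and 12.55. Means were lower at 6 h than in vehicle skin, without overlap, for fibroblast markers (11.83 to 12.24 against 12.44 to 12.55), 6 adipocyte markers (9.95 to 11.11 against 11.28 to 11.69) and 7 endothelial markers (6.39 to 6.90 against 7.10 to 7.79). On 24 h replicate 4 the fibroblast, adipocyte and macrophage means were the lowest of all arrays (10.56, 9.33 and 7.46) and the basal keratinocyte mean the highest (12.12). With the actin ratio as a covariate in the fit, no member was called, and the median member difference was 0.13 at 6 h, -0.017 at 24 h and -0.097 between the times, against 0.054, -0.052 and -0.068 without it. The actin ratio was lower on every 6 h array (0.0725 to 0.425) than on every vehicle array (0.484 to 0.593). For 6 h against vehicle, values with this covariate therefore cannot tell RNA quality and dosing apart, here and below. The part of tissue composition in the results below was not tested. In whole skin, fewer cells of a type and less RNA per cell cannot be told apart.

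At 6 h, no member passed the threshold of an adjusted p of 0.05 in limma's fit over 13710 genes, and neither did any gene of the array (0% of genes). At an unadjusted p under 0.05, 6 of 41 members passed, 4 higher and 2 lower, or 14.6% of members against 16.1% of all genes. The members with smallest p were Med14, Med18, Polr2i, Med31, Polr2m and Polr2a. Values at 6 h lay wholly above vehicle for 3 members (Med14, Med31 and Polr2a), where 9.77% of all genes did so. They lay wholly below vehicle for 2 (Polr2i and Polr2m), where 8.77% of all genes did. The share of members without overlap, 12.2%, was thus below the 18.5% of all genes. This count of 5 was 9 without 6 h replicate 1 or replicate 3 and 10 without 6 h replicate 5 or vehicle replicate 3, comparisons in which 23.9% to 26.9% of all genes did not overlap. Single differences ran from -0.84 (Med24) to 0.74 (Med18), 24 were positive, and the median was 0.054 against 0.0037 for all genes. That median was -0.0084 without vehicle replicate 4 and 0.086 without 6 h replicate 5. The direction depends on the scaling: with the intensities as deposited the median of all genes was itself -0.68 and that of the members -0.73, and with median scaling the medians were -0.091 and -0.081. The differences below are relative to the quantile-normalized arrays.

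**Figure D1:**
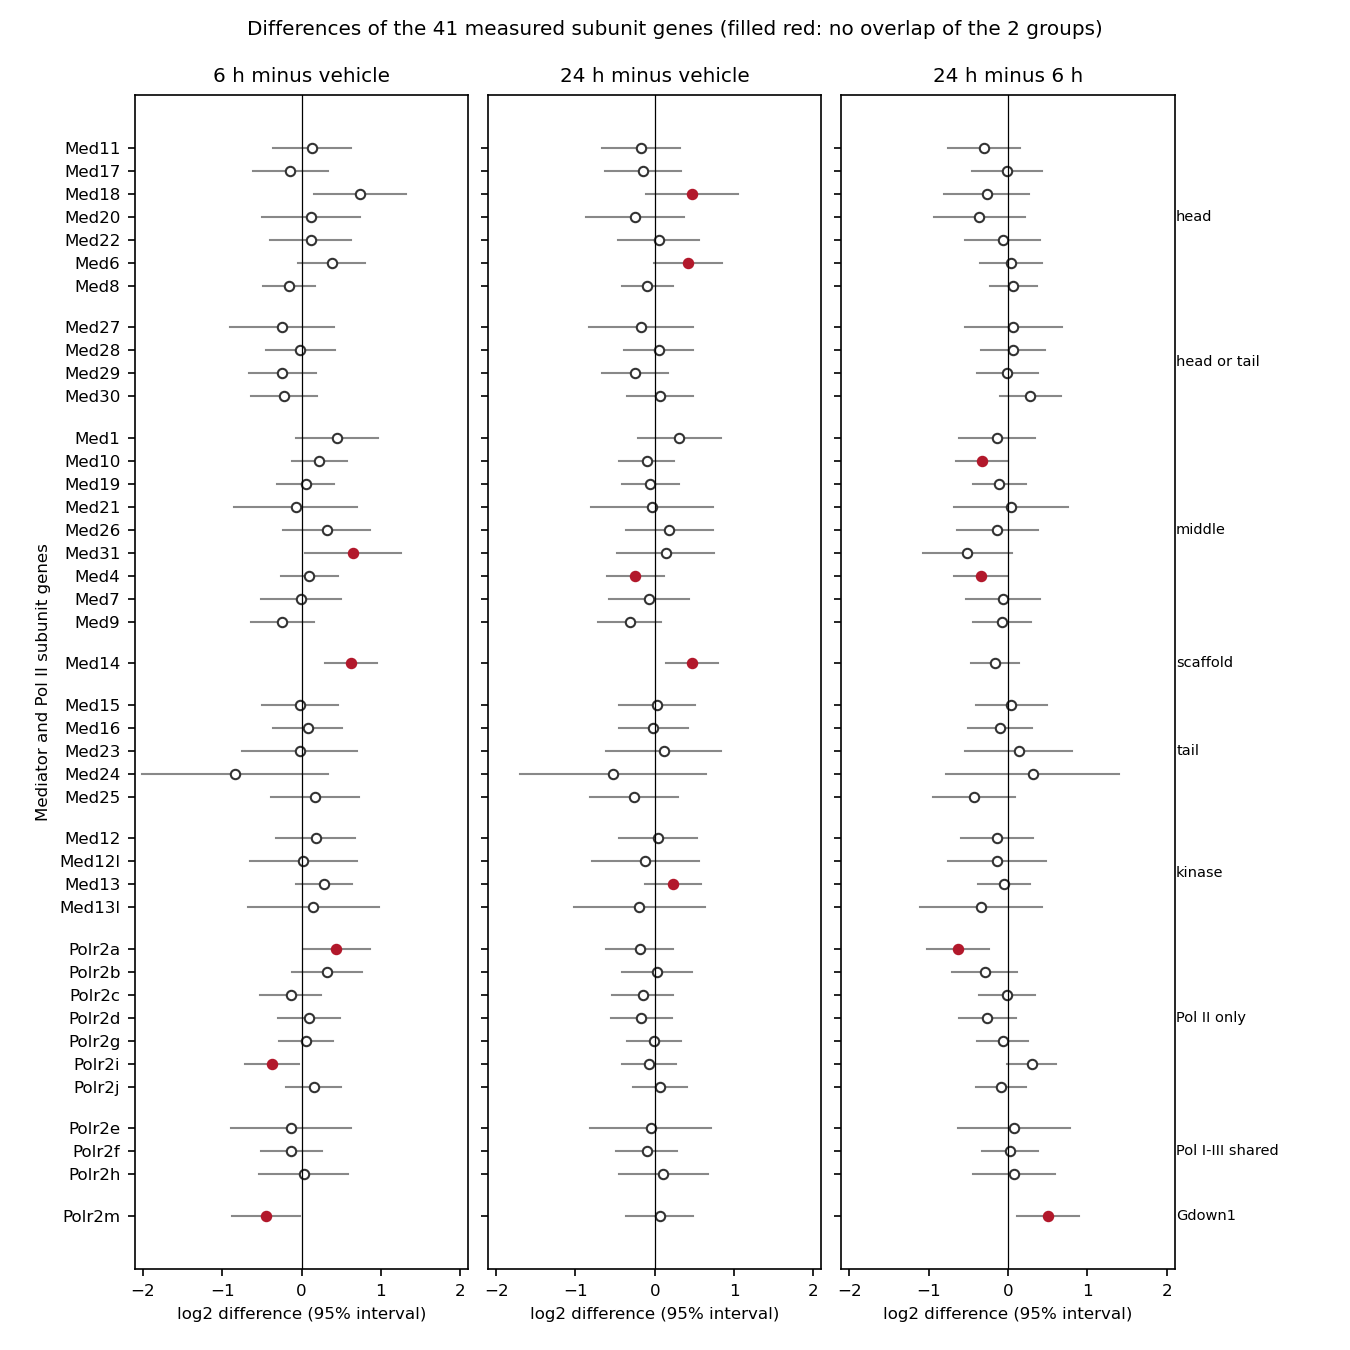
Difference of each of the 41 members in the 3 comparisons, on the log2(intensity + 16) scale, as points with 95% intervals from limma, grouped by module. Filled red points are members whose arrays do not overlap between the 2 groups: 5 at 6 h against vehicle, 5 at 24 h against vehicle and 4 between 24 h and 6 h. These positions are for quantile-normalized values and shift downward in the first 2 panels with the intensities as deposited.

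Med14, the subunit that joins the Mediator modules, had the smallest p of the members at 6 h. It read 8.79, 8.86 and 8.90 in vehicle skin, 9.25, 9.54, 9.51 and 9.58 at 6 h (replicates 1, 2, 3 and 5) and 9.29, 9.48, 9.28 and 9.19 at 24 h (replicates 1 to 4). All 8 arrays of dosed skin were above all 3 vehicle arrays. The 6 h difference was 0.62 ± 0.15 (SE; adjusted p = 0.144, limma), or 1.54-fold with a 95% interval of 0.29 to 0.95 on the log2 scale. With intensities as deposited it was -0.15, which is 0.52 above the median of all genes in the same setting.

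Med18, a head subunit, showed the highest difference of the members, 0.74 ± 0.26 (SE; adjusted p = 0.233, limma). Vehicle arrays read 6.60, 6.79 and 6.95, and the 6 h arrays 6.75, 7.60, 7.80 and 7.91 (replicates 1, 2, 3 and 5). Replicate 1 at 6 h lay within the vehicle range, while the other 6 h arrays were above it, and the difference was 0.47 with the actin covariate. Of the 7 head subunits, 5 had positive and 2 negative differences at 6 h, with a median of 0.12. All 4 of Med27, Med28, Med29 and Med30, which different schemes place in the head or the tail, had negative differences (median -0.23), none of which passed even the unadjusted threshold.

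Among the 9 middle module subunits, 6 had positive differences at 6 h, with a median of 0.095. Med31, a small conserved middle subunit, read 8.18, 8.27 and 8.14 in vehicle skin and 8.43, 8.59, 8.96 and 9.41 at 6 h, a difference of 0.65 ± 0.28 (SE; adjusted p = 0.286, limma). The highest of these values, 9.41, came from 6 h replicate 5, the array of lowest actin ratio, and with the actin covariate the Med31 difference was 0.20. Med1, the subunit contacted by nuclear receptors, differed by 0.45 ± 0.24 (SE; adjusted p = 0.385, limma), with overlapping groups. Its 6 h difference was 0.24 without vehicle replicate 3.

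In the kinase module, all 4 of Med12, Med12l, Med13 and Med13l had positive differences at 6 h, from 0.023 to 0.28, and none passed the unadjusted threshold. Med12, which activates the module's kinase, read 7.13, 7.11 and 7.19 in vehicle skin and 7.40, 7.63, 7.24 and 7.02 at 6 h, a difference of 0.18 ± 0.22 (SE; adjusted p = 0.723, limma) that was -0.0053 with median scaling. It was 0.073 without 6 h replicate 2, 0.28 without 6 h replicate 5 and 0.42 with the actin covariate. Of the module's remaining subunits, which the symbol rule does not catch, cyclin C (Ccnc) and the kinases Cdk8 and Cdk19 gave 2 positive and 1 negative difference. Cdk19 lay wholly below vehicle, by -0.30 ± 0.17 (SE; adjusted p = 0.400, limma). The 5 tail subunits had a median of -0.017, with 2 positive.

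Polr2a, the catalytic subunit that carries the C-terminal repeat domain of Pol II, was higher on every 6 h array than on every vehicle array. It read 9.17, 9.10 and 9.01 in vehicle skin and 9.84, 9.65, 9.37 and 9.27 at 6 h, a difference of 0.44 ± 0.19 (SE; adjusted p = 0.294, limma). With intensities as deposited the difference was -0.36, or 0.31 above the median of all genes. Of the 7 subunits that Pol II does not share, 5 had positive differences at 6 h, with a median of 0.093. The 3 measured shared subunits Polr2e, Polr2f and Polr2h ranged from -0.13 to 0.026.

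Polr2i and Polr2m had the opposite sign to Polr2a at 6 h. Polr2i, a small subunit that takes part in proofreading by the polymerase, read 9.74, 9.62 and 9.63 in vehicle skin and 9.30, 9.34, 9.43 and 9.11 at 6 h. Its difference was -0.37 ± 0.15 (SE; adjusted p = 0.282, limma). Polr2m encodes Gdown1, a protein bound to a fraction of Pol II rather than a core subunit. It read 10.01, 10.12 and 10.11 in vehicle skin and 9.91, 9.81, 9.69 and 9.11 at 6 h, a difference of -0.45 ± 0.19 (SE; adjusted p = 0.291, limma). Without 6 h replicate 5, the lowest array, it was -0.27. With the actin covariate the differences were -0.23 for Polr2i and -0.16 for Polr2m.

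**Figure D2:**
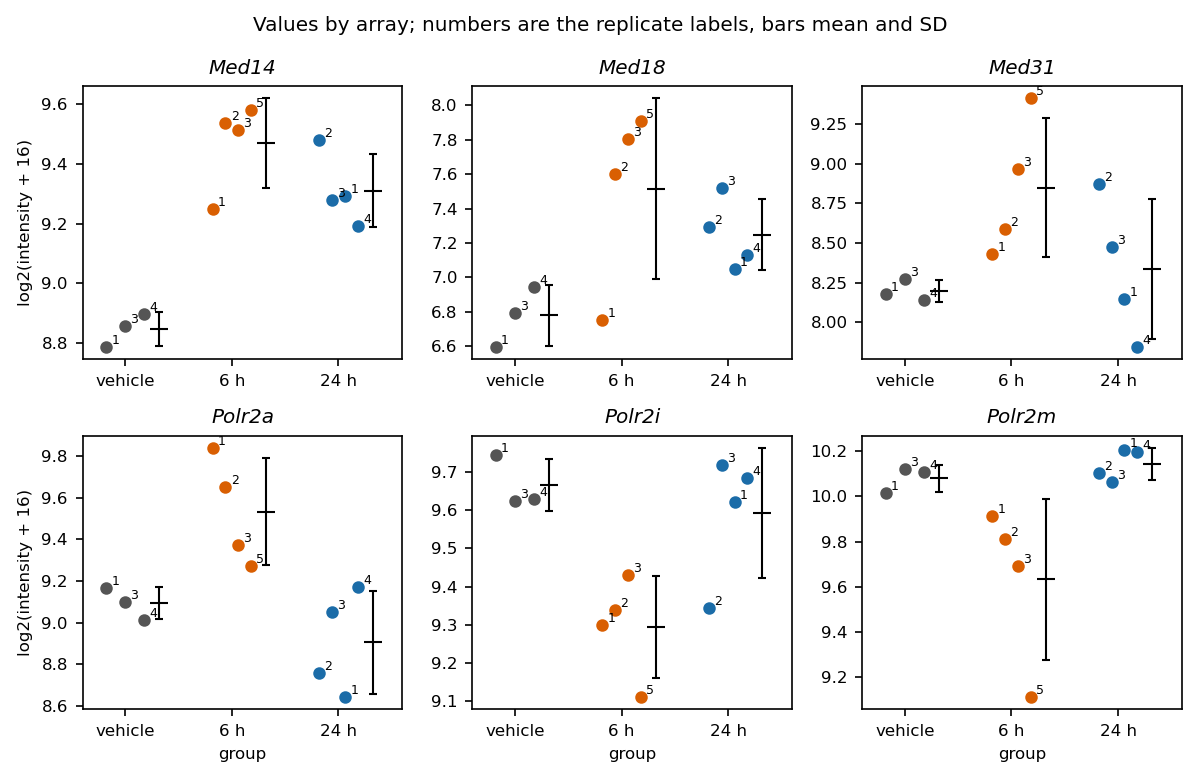
Values of 6 members on each array, as log2(intensity + 16), with the replicate label beside each point and the mean and SD of the group at its right; each panel has its own vertical axis, which does not start at 0. Med14, Med31 and Polr2a sit above vehicle on all 4 arrays at 6 h, Polr2i and Polr2m below it, and Med18 has 1 array at 6 h (6.75) within the vehicle range. With the intensities as deposited the 6 h differences of Med14, Med31 and Polr2a were negative (-0.15, -0.12 and -0.36).

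At 24 h against vehicle, no member and no gene (0%) passed the adjusted threshold in limma's fit. At an unadjusted p under 0.05, 1 of 41 members passed, Med14, or 2.44% against 7.63% of all genes. Differences ran from -0.53 (Med24) to 0.47 (Med18), 17 were positive and 24 negative, and the median was -0.052 against -0.020 for all genes. Leaving out 1 array moved it to between -0.091 (vehicle replicate 4) and -0.017 (24 h replicate 3). With intensities as deposited these medians were -0.72 and -0.62. All 24 h arrays lay above all vehicle arrays for 4 members (Med6, Med13, Med14 and Med18), where 5.09% of all genes did. They lay below vehicle for 1 (Med4), where 6.02% of all genes did. This count of 5 was 8 without vehicle replicate 4, a comparison in which the share of all genes without overlap was 18.9% instead of 11.1%.

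Med14 was above vehicle on all 24 h arrays, by 0.46 ± 0.15 (SE; adjusted p = 0.531, limma). The head subunits Med6 and Med18 came next, with differences of 0.42 ± 0.19 (SE; adjusted p = 0.650, limma) and 0.47 ± 0.26 (SE; adjusted p = 0.680, limma). Med6 read 7.25, 7.22 and 6.93 in vehicle skin and 7.52, 7.50, 7.67 and 7.54 at 24 h. Med18 read 7.05, 7.29, 7.52 and 7.13 at 24 h, above the vehicle range of 6.60 to 6.95. Both head subunits thus had separate groups at 24 h and overlapping groups at 6 h.

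The middle subunits Med9 and Med4 had negative differences at 24 h, -0.32 ± 0.18 (SE; adjusted p = 0.681, limma) and -0.25 ± 0.16 (SE; adjusted p = 0.717, limma). The Med9 difference was -0.19 without vehicle replicate 1. Med13 of the kinase module differed by 0.24 ± 0.16 (SE; adjusted p = 0.729, limma), and by 0.11 without vehicle replicate 1. Med1 differed by 0.31 ± 0.24 (adjusted p = 0.748), Med12 by 0.036 ± 0.22 (adjusted p = 0.975) and Polr2a by -0.19 ± 0.19 (adjusted p = 0.817), each with overlapping groups. Med1 was 0.11 without vehicle replicate 3 and 0.48 without vehicle replicate 4, Med12 was -0.14 without 24 h replicate 4, and Polr2a was -0.10 without 24 h replicate 1. None of the 11 Pol II subunits separated from vehicle at 24 h, and their differences ran from -0.19 (Polr2a) to 0.11 (Polr2h).

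Between 24 h and 6 h, which tests the difference between both effects, no member and no gene (0%) passed the adjusted threshold in limma's fit. At an unadjusted p under 0.05, 4 of 41 members passed, 1 higher and 3 lower at 24 h, or 9.76% against 9.27% of all genes. The 24 h arrays lay wholly above the 6 h arrays for 1 member (Polr2m), where 1.92% of all genes did. They lay wholly below for 3 (Med4, Med10 and Polr2a), where 3.54% of all genes did. Of the members, 27 were lower and 14 higher at 24 h, with a median of -0.068 against -0.019 for all genes. Leaving out 1 array moved it to between -0.10 (6 h replicate 1) and -0.037 (6 h replicate 2). With intensities as deposited the medians were 0.045 and 0.077. Without 6 h replicate 1 the number without overlap was 7, where the share of all genes was 8.21% instead of 5.46%.

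Polr2a had the smallest p of the members between the times. It read 8.64, 8.76, 9.05 and 9.17 at 24 h (replicates 1 to 4), all below the lowest 6 h array at 9.27, a difference of -0.63 ± 0.18 (SE; adjusted p = 0.307, limma). In the same comparison Polr2m was higher at 24 h by 0.51 ± 0.18 (SE; adjusted p = 0.398, limma), with 24 h arrays between 10.06 and 10.21. Without 6 h replicate 5 the Polr2m difference was 0.34. Polr2i was higher by 0.30 ± 0.14 (SE; adjusted p = 0.571, limma), with overlap through 24 h replicate 2 at 9.35. The 2 vehicle comparisons share their 3 vehicle arrays, so their values for a member are not independent. Likewise, 6 h against vehicle and 24 h against 6 h share the 4 arrays at 6 h, which enter with opposite sign. A deviation of those arrays thus shows as opposite differences in both, and such mirrored values are not separate results, here and below.

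The middle module gave 8 negative differences of 9 between 24 h and 6 h, with a median of -0.13. Med4 differed by -0.34 ± 0.15 (SE; adjusted p = 0.528, limma) and Med10, a conserved middle subunit, by -0.33 ± 0.15 (SE; adjusted p = 0.535, limma). Med31 differed by -0.51 ± 0.26 (SE; adjusted p = 0.585, limma), by -0.33 without 6 h replicate 5 and by -0.26 with the actin covariate. Med14, Med1 and Med12 differed by -0.16 ± 0.14 (adjusted p = 0.785), -0.14 ± 0.22 (adjusted p = 0.901) and -0.14 ± 0.21 (adjusted p = 0.893), with overlapping groups. Med1 was -0.0038 without 6 h replicate 2 and -0.28 without 24 h replicate 4, and Med12 was -0.010 without 24 h replicate 2 and -0.31 without 24 h replicate 4. All 4 kinase module members had negative differences, from -0.34 to -0.049, and none passed the unadjusted threshold.

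For the brightest probe sets after quantile normalization, the intervals limit how large a change relative to other genes could have been. They do not cover a shift common to all genes, which this normalization removes. With intensities as deposited the median member difference was -0.73 at 6 h and -0.72 at 24 h, against -0.68 and -0.62 for all genes. The 95% interval of the difference lay within 1 log2 unit either way for 38 of 41 members at 6 h, 38 at 24 h and 37 between the times. That is 92.7%, 92.7% and 90.2% of members, against 62.9%, 68.6% and 74.3% of all genes. Such shares were not particular to the members. They were 89.7%, 96.6% and 86.2% of general transcription factor genes, and 93.3%, 86.7% and 93.3% of Pol II assembly and C-terminal domain genes. For Pol I and Pol III subunits they were 71.4%, 78.6% and 78.6%. Med24, a dim tail subunit, had the widest interval at 6 h, from -2.02 to 0.34, and read 4.00, the floor, on 6 h replicate 5.

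The members varied little between arrays of a group. Their median pooled SD was 0.242, against 0.344 for all genes, running from 0.112 for Med8 to 0.809 for Med24. It exceeded 0.5 for 4 members, Med24, Med13l, Med21 and Polr2e. Med21, a middle subunit that pairs with Med7, read 7.85, 8.19, 8.84 and 9.24 at 6 h and 8.60, 8.94, 8.95 and 7.79 at 24 h, against 8.63, 8.69 and 8.49 in vehicle skin. Its dosed arrays lay on both sides of vehicle at both times. 6 h replicate 5 and 24 h replicate 4 were each the lowest or the highest of the 11 arrays for 14 of 41 members, or 34.1%, close to their shares of 35.5% and 37.6% over all genes. 6 h replicate 1 was the highest array for 11 members, or 26.8%, against 10.2% of all genes.

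Several members had more than 1 probe set, and these did not always have the same sign. The 41 members had 79 probe sets, of which 62 passed the filter, and 14 members had more than 1 that passed. All probe sets of a gene had the same sign for 8 of these 14 at 6 h, 4 at 24 h and 6 between the times. Med14 was 1 of the 6 with mixed signs at 6 h: its 3 dimmer probe sets, with means of 5.62, 5.55 and 5.17 against 9.24 for the brightest, gave -0.28, -0.22 and -0.16. With the probe sets of a gene averaged, the Med14 difference at 6 h was -0.032. The second Polr2a probe set, with a mean of 4.95, gave -0.064 at 6 h and 0.26 between the times.

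The 4 probe sets of Med1 above the filter all had positive differences at 6 h. Its second probe set, with a mean of 8.84 close to the 8.93 of the brightest, read 8.61, 8.68 and 8.75 in vehicle skin, 9.16, 9.16, 9.06 and 9.20 at 6 h and 8.61, 8.49, 8.50 and 8.98 at 24 h. It lay wholly above vehicle at 6 h, by 0.46, and wholly below 6 h at 24 h, by -0.50, while the brightest overlapped in both comparisons. A dimmer Med13 probe set gave 0.46 at 6 h and -0.54 between the times, also without overlap. The choice of the brightest probe set affected which members had separate groups.

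**Figure D3:**
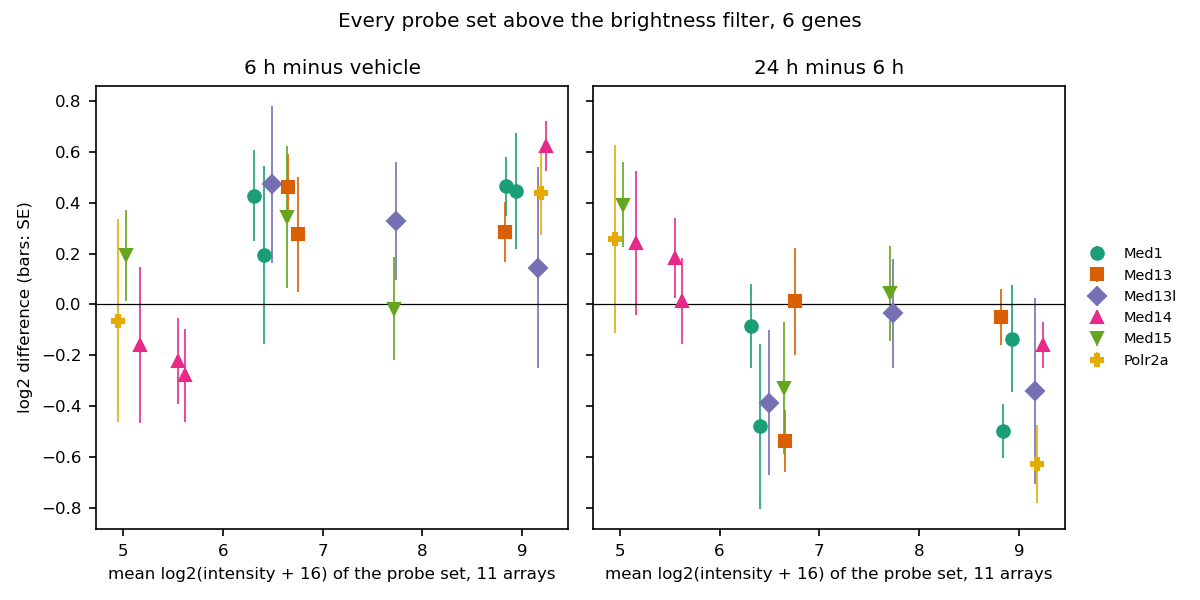
Difference against mean brightness, both as log2(intensity + 16), for every probe set above the filter of 6 members, at 6 h against vehicle (left) and 24 h against 6 h (right). Bars are moderated standard errors from a limma fit over all probe sets annotated to a single gene, so they differ from the SEs in the text. Symbols mark the gene. The brightest Med14 probe set lies at 0.62 in the left panel and its 3 dimmer ones between -0.28 and -0.16, while the 4 Med1 probe sets are all positive there, for quantile-normalized values; the brightest Med14 and Med1 probe sets were negative with the intensities as deposited (-0.15 and -0.35).

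Hexim1, an inhibitor of the elongation kinase P-TEFb and a commonly used marker of BET inhibition, was followed as a gene outside the complexes. It read 8.93, 8.70 and 8.77 in vehicle skin, 10.14, 9.98, 9.94 and 9.54 at 6 h and 8.72, 8.86, 8.86 and 8.78 at 24 h. All 6 h arrays were higher than all others. The difference at 6 h was 1.10 ± 0.17 (SE; adjusted p = 0.0638, limma) and that between the times -1.09 ± 0.16 (SE; adjusted p = 0.0672, limma). At 24 h it was 0.0062 ± 0.17 (adjusted p = 0.993). Hexim1 passed the adjusted threshold in limma's fit at 6 h without 24 h replicate 4 (adjusted p = 0.0480), and between the times without 6 h replicate 5 (adjusted p = 0.0432). At 6 h it also passed without the filter (0.0388), with averaged probe sets (0.0282) and with array weights (0.00151). Between the times it also passed with the actin covariate (0.0463), averaged probe sets (0.0187) and array weights (0.00795). Over all alternatives its adjusted p ran from 0.00151 to 0.551 at 6 h and from 0.00795 to 1.00 between the times.

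Other parts of the basal transcription machinery were described by lists, in which no gene passed the adjusted threshold. Of 31 general transcription factor genes (TFIIA to TFIIH, including the TAFs of TFIID), 29 were tested: at 6 h, 25 had positive and 4 negative differences, with a median of 0.15 against 0.0037 for all genes. At an unadjusted p under 0.05, 4 were higher and 0 lower. These 4 were 13.8% of the list, against 16.1% of all genes in either direction. For 7 of the 29 the 6 h arrays lay wholly above vehicle, or 24.1% against 9.77% of all genes, with Taf2, a TFIID subunit that binds core promoters, at 0.62 ± 0.17 (SE; adjusted p = 0.173, limma). Between the times 22 of the 29 were lower at 24 h, with a median of -0.21 against -0.019 for all genes, and Taf5 differed by -0.73 ± 0.18 (SE; adjusted p = 0.249, limma). At 24 h against vehicle the median was -0.029 with 10 positive, and Taf1 differed by 0.40 ± 0.17 (SE; adjusted p = 0.619, limma). Like the members, the TAFs named here had negative differences against vehicle with the intensities as deposited, -0.18 for Taf2 and -0.34 for Taf1.

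Of 18 Pol I and Pol III subunit genes, 14 were tested, and at 6 h 10 were positive, with a median of 0.20. At an unadjusted p under 0.05, 5 were higher and 1 lower at 6 h, or 42.9% of the list against 16.1% of all genes. Polr1d, shared by Pol I and Pol III, differed by 0.58 ± 0.15 (SE; adjusted p = 0.160, limma), but by -0.27 through the probe set used once those that may cross-hybridize were left out. Polr3gl, a Pol III subunit, differed at 24 h by 0.53 ± 0.21 (SE; adjusted p = 0.599, limma). Polr1e of Pol I was lower at 24 h than at 6 h by -0.63 ± 0.17 (SE; adjusted p = 0.266, limma).

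Genes for Pol II assembly and for modification of its C-terminal domain numbered 15, of which 8 were positive at 6 h, with a median of 0.15. The GTPase Gpn3, which takes part in Pol II assembly, differed by 0.44 ± 0.16 (SE; adjusted p = 0.233, limma). Rpap3 differed at 24 h by -0.47 ± 0.22 (SE; adjusted p = 0.653, limma), and by -0.30 without 24 h replicate 4. The phosphatase Ctdsp1 was higher at 24 h than at 6 h by 0.59 ± 0.14 (SE; adjusted p = 0.236, limma). Of the 5 tested pausing factor genes (NELF and DSIF), 2 were positive at 6 h, 2 at 24 h and 3 between the times, and none passed the unadjusted threshold. Those of smallest p were Nelfa, at -0.30 ± 0.26 (adjusted p = 0.603) at 6 h and 0.30 ± 0.24 (adjusted p = 0.762) between the times, and Supt5, at 0.30 ± 0.26 (adjusted p = 0.775) at 24 h. The Nelfa difference at 6 h was 0.014 without vehicle replicate 4 and -0.46 without vehicle replicate 3. Without 24 h replicate 4, Nelfa differed by 0.13 between the times and Supt5 by 0.073 at 24 h. Cdk8 of the kinase module was lower at 24 h than at 6 h by -0.42 ± 0.19 (SE; adjusted p = 0.537, limma), and Cdk19 stood at -0.33 ± 0.17 (adjusted p = 0.662) against vehicle at 24 h.

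**Figure D4:**
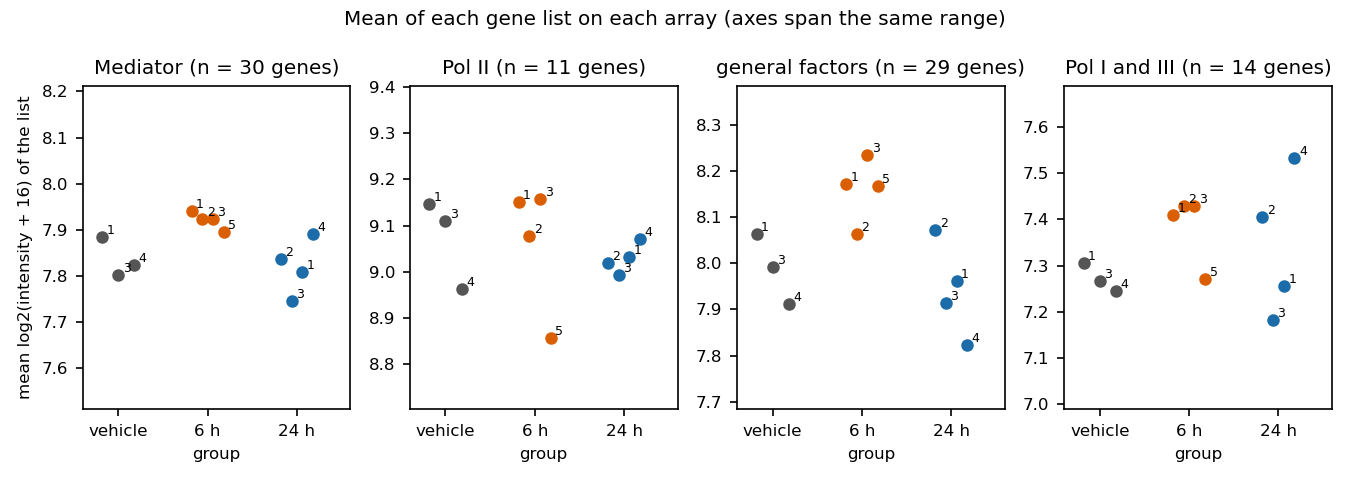
Mean of each gene list on each array, as log2(intensity + 16), with replicate labels; the vertical axes span equal ranges but are centred on each list and do not start at 0. The Mediator mean lies between 7.90 and 7.94 on the 4 arrays at 6 h, above the vehicle range of 7.80 to 7.89, for quantile-normalized values, and the Pol II mean overlaps between all groups.

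The mean over the 30 Mediator genes was 7.89, 7.80 and 7.82 in vehicle skin, 7.94, 7.92, 7.92 and 7.90 at 6 h and 7.81, 7.84, 7.75 and 7.89 at 24 h. After quantile normalization the 6 h arrays were the 4 highest, by a small margin (7.896 on 6 h replicate 5 against 7.891 on 24 h replicate 4). The mean over the 11 Pol II genes was 9.15, 9.11 and 8.96 in vehicle skin, 9.15, 9.08, 9.16 and 8.86 at 6 h and 9.03, 9.02, 8.99 and 9.07 at 24 h, overlapping in every comparison. Its lowest array was 6 h replicate 5, on which Polr2e read 7.15. The mean over all 41 members overlapped between 6 h (8.15 to 8.27) and vehicle (8.13 to 8.22). With intensities as deposited, that mean was 8.85, 7.82, 7.33 and 7.61 at 6 h, against 8.66, 8.70 and 8.47 in vehicle skin. With weights for each array's variance, which give 6 h replicate 5 and 24 h replicate 4 the least weight (0.299 and 0.270), limma called 4 members at 6 h: Med14 (adjusted p = 0.00694), Polr2a (adjusted p = 0.0202), Med1 (adjusted p = 0.0215) and Med18 (adjusted p = 0.0309). In that fit 2498 genes, 18.2% of all, were called, against 9.76% of the members. Its highest weight, 4.85, fell on vehicle replicate 3, against 0.659 and 1.54 for vehicle replicates 1 and 4, so the vehicle mean leaned on 1 array. Med1 at 6 h was 0.83 in the weighted fit, and 0.24 without vehicle replicate 3 in the unweighted fit. Over the other alternatives the adjusted p at 6 h was at least 0.0627 for Med14, 0.229 for Polr2a, 0.261 for Med1 and 0.117 for Med18, and at most 0.935, 0.757, 0.715 and 0.997. Between the times the weighted fit called 1 member, Polr2a (adjusted p = 0.0246), among 423 genes (3.09%; 0.218 to 1.00 over the other alternatives), and at 24 h against vehicle none of the members among 59 genes.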

How the data were processed

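The authors deposited 1 table of linear intensities for 45101 probe sets on 11 arrays. RNA input was 200 ng, labelled with a 3′ IVT kit, per the labels. Which software and scaling made them is not given in the sources used here. Of each array, 12.9% to 16.6% lay below 0. The number of arrays limits the precision.

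Intensities were quantile-normalized, floored at 0 and taken as log2(intensity + 16), which understates changes of dim genes. Each gene was represented by the brightest of its probe sets annotated to it alone (34958 probe sets), and 13710 of 18194 genes passed the filter. Groups were compared in 1 fit over all arrays with limma 3.58.1 (lmFit, eBayes) in R 4.3.3, two-sided, with Benjamini-Hochberg adjustment over all 13710 genes. Fold changes and intervals come from the same fit. Its power was checked for 6 h against vehicle in a simulation of 13710 genes, with 100 planted changes of each size. Of those of 1 log2 unit 36% were called, and of those of 2 log2 units 93%. Calls also fell on 7 unchanged genes. Most planted changes of 1 log2 unit were thus missed. The changes were planted in genes drawn at random, with independent normal noise of equal variance on every array. The real arrays differed in variance (weights of 0.270 to 4.85), and the members varied less than all genes. The shares called therefore do not give the power for the members.

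The members, lists and settings, including the normalization, were chosen with earlier results of these data known. Differences are given for the 6 members of smallest p in each comparison, for Polr2a, Med1, Med12 and Med14 in all, and for the member of smallest p of each list. Probe sets and Med24 were described after their values were seen.

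Same-numbered vehicle and 24 h arrays had correlated deviations from group means (0.246, 0.135 and 0.205), which met the criterion for pairs. Those of vehicle and 6 h (-0.120 and -0.0738) and of 6 h and 24 h (-0.0640, -0.345 and 0.169) did not. Vehicle and 24 h arrays of different number ran from -0.350 to 0.211, so their values overlapped those of same-numbered arrays. No batch is given in the labels. At most 3 values were identical between any pair of arrays.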

Additional observations from a re-analysis of the deposited data

Results flagged for a closer look

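Among 82 groups of 4 arrays (41 members at 6 h and at 24 h), 4 held 1 array set far apart from the others by the gap test of Dixon at the 95% level, which chance alone does in about 5% of groups. At 6 h, both were replicate 5: Med22, a head subunit, read 6.91 against 7.64 to 7.73 on the other arrays, and Polr2e, shared by all nuclear polymerases, read 7.15 against 8.47 to 8.61. At 24 h, both were replicate 4: Med30 read 8.58 against 9.12 to 9.21, and Med15, a tail subunit, read 7.91 against 7.67 to 7.69.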

How the results depend on the processing

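The fit was repeated under 26 alternatives. Of 1144 values for 44 named gene results, 1087 kept their direction and their side of the adjusted threshold. Another 38 changed sign and 19 newly passed the threshold, and the cause was not tested. The count of 1087 includes alternatives in which a difference cannot change. These are another filter, the variance trend, a fit on only the groups compared, and an array outside those groups left out. As no gene passed in the main fit, none could lose a call. The intensities as deposited, without normalization between arrays, moved the median member difference to -0.73 at 6 h, -0.72 at 24 h and 0.045 between the times, and the members without overlap to 25 at 24 h and 0 between the times, where 40.6% and 0.897% of all genes did not overlap. They turned the sign of Gpn3 (-0.35), Med1 (-0.35), Med12 (-0.60), Med14 (-0.15), Med31 (-0.12), Polr1d (-0.10), Polr2a (-0.36) and Taf2 (-0.18) at 6 h, and of Hexim1 (-0.74), Med1 (-0.44), Med12 (-0.60), Med13 (-0.51), Med14 (-0.27), Med18 (-0.11), Med6 (-0.23), Polr3gl (-0.19), Supt5 (-0.45) and Taf1 (-0.34) at 24 h. Median scaling gave medians of -0.081, -0.30 and -0.17 against -0.091, -0.23 and -0.12 for all genes, 3 members without overlap at 6 h against 15.3% of all genes, and turned Med12 at 6 h (-0.0053) and Hexim1 (-0.31), Med1 (-0.011), Med12 (-0.21), Med13 (-0.082) and Supt5 (-0.026) at 24 h. Cyclic loess turned Hexim1 (-0.0095) and Med12 (-0.0053) at 24 h, and array weights Med12 (-0.046) at 24 h; array weights called 4 members at 6 h and 1 between the times. With probe sets averaged, Med14 was -0.032 at 6 h and 0.052 between the times, Polr2a 0.0026 at 24 h, and 2 members had no overlap at 24 h against 10.1% of all genes. Without probe sets that may cross-hybridize Polr1d was -0.27 at 6 h. Leaving out the 3 arrays of low actin ratio, chosen after seeing the data, gave a 6 h median of 0.15, 23 members without overlap at 6 h and 12 between the times, where 47.1% and 24.5% of all genes did not overlap with only 2 arrays left at 6 h, and Hexim1 at -0.012 at 24 h. Leaving out each array in turn gave 5 to 10 members without overlap at 6 h, 5 to 8 at 24 h and 4 to 7 between the times. It gave ranges at 24 h of -0.14 to 0.17 for Med12 and -0.043 to 0.070 for Hexim1, and for Nelfa at 6 h of -0.46 to 0.014. With the replicate number as a block, the median member difference was 0.12 at 6 h, -0.059 at 24 h and -0.10 between the times, 0 members were called in each comparison, and no call of a member or named gene changed; over all genes 1 was called at 6 h against 0 without the block. The block moved Med31 to 0.26 at 6 h and -0.22 between the times, Polr2m to -0.25 and 0.32, Polr2i to -0.25 at 6 h, Nelfa to -0.041 and 0.077, Med12 to 0.42 at 6 h, 0.083 at 24 h and -0.34 between the times, and Med1 to -0.31 and Med14 to -0.10 between the times. The block also moved Polr2a to 0.59 at 6 h and -0.75 between the times, and Med1 to 0.61 at 6 h, all further from 0 than in the main fit. With the actin covariate, beside the values given above, Polr2a was -0.11 and Med12 0.14 at 24 h, and Med12 was -0.28 and Med14 -0.097 between the times. The covariate also gave 0.62 for Polr2a, 0.52 for Med1 and 0.51 for Med14 at 6 h, and -0.73 for Polr2a between the times.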
